A study of Homo sapiens with 6 samples.

Results

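Described here are the genes for the proteins of the cytosolic ribosome, in human pancreatic cancer cells made to overexpress the splicing regulators ESRP1 or ESRP2. Members were taken by symbol, as the RPL and RPS genes with a plain number and at most a short suffix, plus RPLP0, RPLP1, RPLP2 and RPSA. RPS16 was left out by the rule as part of another set of genes from these data, and mitochondrial ribosomal proteins have other symbols. The match by symbol used no measured value. The rule found 83 of 27408 genes, of which 52 belong to the large subunit and 31 to the small subunit. Ribosomal proteins made from genes with other names, such as FAU, fall outside it.

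ESRP1 and ESRP2 are paralogous RNA-binding proteins that regulate splicing in epithelia. PANC-1 and MIA-PaCa2, both established pancreatic cancer cell lines, were sequenced in 3 forms each: overexpressing ESRP1, overexpressing ESRP2, or carrying LPCX, which the labels call the control. Each of the 6 combinations has 1 library of messenger RNA, grown in 10% serum with no other treatment, and the labels name neither the promoter that drives the regulators nor whether the cells were cloned. ESRP1 was at 491 and 367 TPM in the PANC-1 and MIA-PaCa2 ESRP1 libraries, against 0.261 and 0.0781 TPM in the LPCX libraries of PANC-1 and MIA-PaCa2. ESRP2 was at 308 and 197 TPM in the PANC-1 and MIA-PaCa2 ESRP2 libraries, against 34.8 and 0.0704 TPM in those with LPCX, so PANC-1 holds ESRP2 of its own. TPM is a transcript level corrected for length, scaled so that a library sums to 1000000, and a lower TPM is therefore relative to all other genes. In such bulk samples fewer cells of a type and less RNA per cell cannot be told apart.

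The ribosome makes every cellular protein from a small subunit, which reads the messenger RNA, and a large subunit, which joins amino acids. Each subunit is built on ribosomal RNA, and most of its proteins are needed in equal numbers. Their messenger RNAs are among the most abundant in growing cells, and most begin with a run of pyrimidines, the terminal oligopyrimidine or TOP motif, through which growth signals control their translation. Ribosomal protein genes differ from most in being short, in having many processed pseudogenes, and in holding small nucleolar RNAs in their introns.

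The pyrimidine start is the sequence feature that the family shares, so it is shown for members that the results below turn on. Each line gives the last 10 bases before and the first 20 from an annotated start of transcription on the gene's strand (RefSeq, GRCh38.p14). Capitals mark the run of pyrimidines that begins with cytosine near that start. RPL27 and RPS27L, shown last, had no such run within 5 bases of the start shown. For RPL27 that start lies downstream of the gene's first listed base. Whether RPL27 has a run at its first listed base is not shown here.
RPL39: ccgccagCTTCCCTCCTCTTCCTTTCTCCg
RPL18: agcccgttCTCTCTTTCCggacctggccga
RPL13A: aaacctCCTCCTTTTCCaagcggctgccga
RPL36: cggcgccagCCCTTCCgccacggccgtctc
RPLP2: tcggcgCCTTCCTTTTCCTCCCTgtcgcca
RPL24: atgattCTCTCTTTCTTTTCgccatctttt
RPS12: cggatgaggCCTCTTTCCCTgccgccgccg
RPS13: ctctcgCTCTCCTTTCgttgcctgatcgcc
RPS21: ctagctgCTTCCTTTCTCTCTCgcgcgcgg
RPL27: gtgaaaggttagcggaagtgtccttctttc
RPS27L: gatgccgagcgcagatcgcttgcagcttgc

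These stretches lie at chr19:49487598-49487627 (RPL13A), chr19:5690285-5690314 (RPL36), chr11:809957-809986 (RPLP2), chr6:132814559-132814588 (RPS12), chr20:62387093-62387122 (RPS21) and chr17:42998409-42998438 (RPL27) on the plus strand of GRCh38.p14, and at chrX:119791611-119791640 (RPL39), chr19:48619159-48619188 (RPL18), chr3:101686699-101686728 (RPL24), chr11:17077648-17077677 (RPS13) and chr15:63157458-63157487 (RPS27L) on the minus strand. A RefSeq window of 250 bases before to 50 bases after the start was on hand for 66 of the 83 members, with 82 windows. A cytosine within 5 bases of the start, followed by at least 4 more pyrimidines (cytosine or thymine) on the gene's strand, was found in 57 of the 82 windows, or 69.5%, against 21.1% of all 35116 windows. RPL39 had the longest of the runs shown, with 22 pyrimidines, and RPL36 the shortest, with 7. RPL18, RPL13A, RPLP2, RPL24, RPS12, RPS13 and RPS21 had between 10 and 17. CCGGAAG, the core that ETS factors bind, was in 28 member windows, or 34.1%, against 10.3% of all. TATATAA was in 6 (7.32%, against 2.57% of all). GGGCGG, the Sp1 core, was in 44 (53.7%, against 45.0%). These last 3 motifs were searched on both strands, and overlaps between motifs were not removed. They are matches of letters, not shown to be sites.

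Several features of the libraries bear on the values. The number of reads behind a TPM is unknown, and between 10578 and 10932 genes reached 5 TPM in a library. KRT8 and KRT18, keratins of simple epithelia, were at 679.8 TPM or more in every library, KRT19 at 234 to 502 TPM and KRT7 at 0.176 to 2.00 TPM. The fibroblast collagen gene COL1A1 was at 66.4 to 108 TPM in PANC-1 and at 0.723 TPM or less in MIA-PaCa2, and COL1A2 at 0.059 TPM or less in PANC-1 and 122 to 132 TPM in MIA-PaCa2. The blood cell markers PTPRC, CD3E and CD79A were at 0.899 TPM or less. CD68, a lysosomal marker of macrophages, was at 295 to 364 TPM in PANC-1 and 20.5 to 23.3 TPM in MIA-PaCa2. The MIA-PaCa2 ESRP1 library stands apart. It held the adult haemoglobin genes HBA1, HBA2 and HBB at 336, 669.9 and 569 TPM, while the other 5 libraries had at most 3.84 TPM of any of them. A list of 14 red cell genes summed to 1578 TPM there, or 0.158% of the TPM, and to 3.75 to 10.9 TPM in the other libraries. ALAS2, SLC4A1 and AHSP, which mark red cell precursors, were at 0.734 TPM or less in all 6. The part of this signal in the members' values was not tested, and the members' medians and counts of calls over both lines are also given without that library.

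Reads of near-identical copies limit all levels below. The gene names used here list 1142 pseudogenes named after 76 of the 83 members, led by RPL23A with 91, and the split of reads between a member and its copies rests on the authors' quantification. Small nucleolar RNA genes lie inside 28 members on GRCh38.

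The 83 genes together held 10.99% of the TPM with ESRP1, 10.5% with ESRP2 and 11.8% with LPCX in PANC-1. In MIA-PaCa2 they held 15.6% with ESRP1, 15.3% with ESRP2 and 16.4% with LPCX. All 3 PANC-1 libraries lay below all 3 MIA-PaCa2 libraries, with means of 11.1% ± 0.644 and 15.8% ± 0.533 (SD, n = 3 libraries each). Within each line LPCX had the highest share and ESRP2 the lowest, with 1 library per value. With coding transcripts alone LPCX was again highest, but in MIA-PaCa2 ESRP1, at 17.2%, lay below ESRP2, at 17.4%. Genes of the large subunit had 1.12, 1.13 and 1.03 times the summed TPM of the small subunit genes with ESRP1, ESRP2 and LPCX in PANC-1, against 1.29, 1.33 and 1.27 times in MIA-PaCa2. This ratio did not overlap between the lines either.

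Levels spanned a wide range within the family, although the proteins mostly occur in equal numbers. Between 77 and 78 members reached 100 TPM in each library. At 1000 TPM there were 46 with ESRP1, 45 with ESRP2 and 47 with LPCX in PANC-1, against 63 with ESRP1, 61 with ESRP2 and 63 with LPCX in MIA-PaCa2. Among the most abundant by mean TPM were RPS18, RPL39, RPS27 and RPS2. RPS18, a protein of the small subunit's head, was at 3998 TPM with ESRP1, 3659.7 TPM with ESRP2 and 4669.9 TPM with LPCX in PANC-1, against 6894 TPM with ESRP1, 7284 TPM with ESRP2 and 7739 TPM with LPCX in MIA-PaCa2. RPL39, the small protein lining the peptide exit tunnel, was at 3739.9 TPM with ESRP1, 3714 TPM with ESRP2 and 4767 TPM with LPCX in PANC-1, against 6925 TPM with ESRP1, 7677 TPM with ESRP2 and 7149 TPM with LPCX in MIA-PaCa2. Both were lower in each PANC-1 library than in any MIA-PaCa2 library. Across 80 members the rank correlation of mean TPM with transcript length was -0.376. TPM is itself divided by length, so these quantities are not independent. The part of the assigned length in this correlation was not tested. The least abundant members that passed 5 TPM in at least 2 libraries were the paralogs RPL22L1, RPS27L, RPL39L, RPL7L1 and RPL26L1. RPL10L and RPL3L, paralogs known from testis and from heart and skeletal muscle, stayed at or below 0.353 TPM in all 6 libraries and were not tested.

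**Figure D1:**
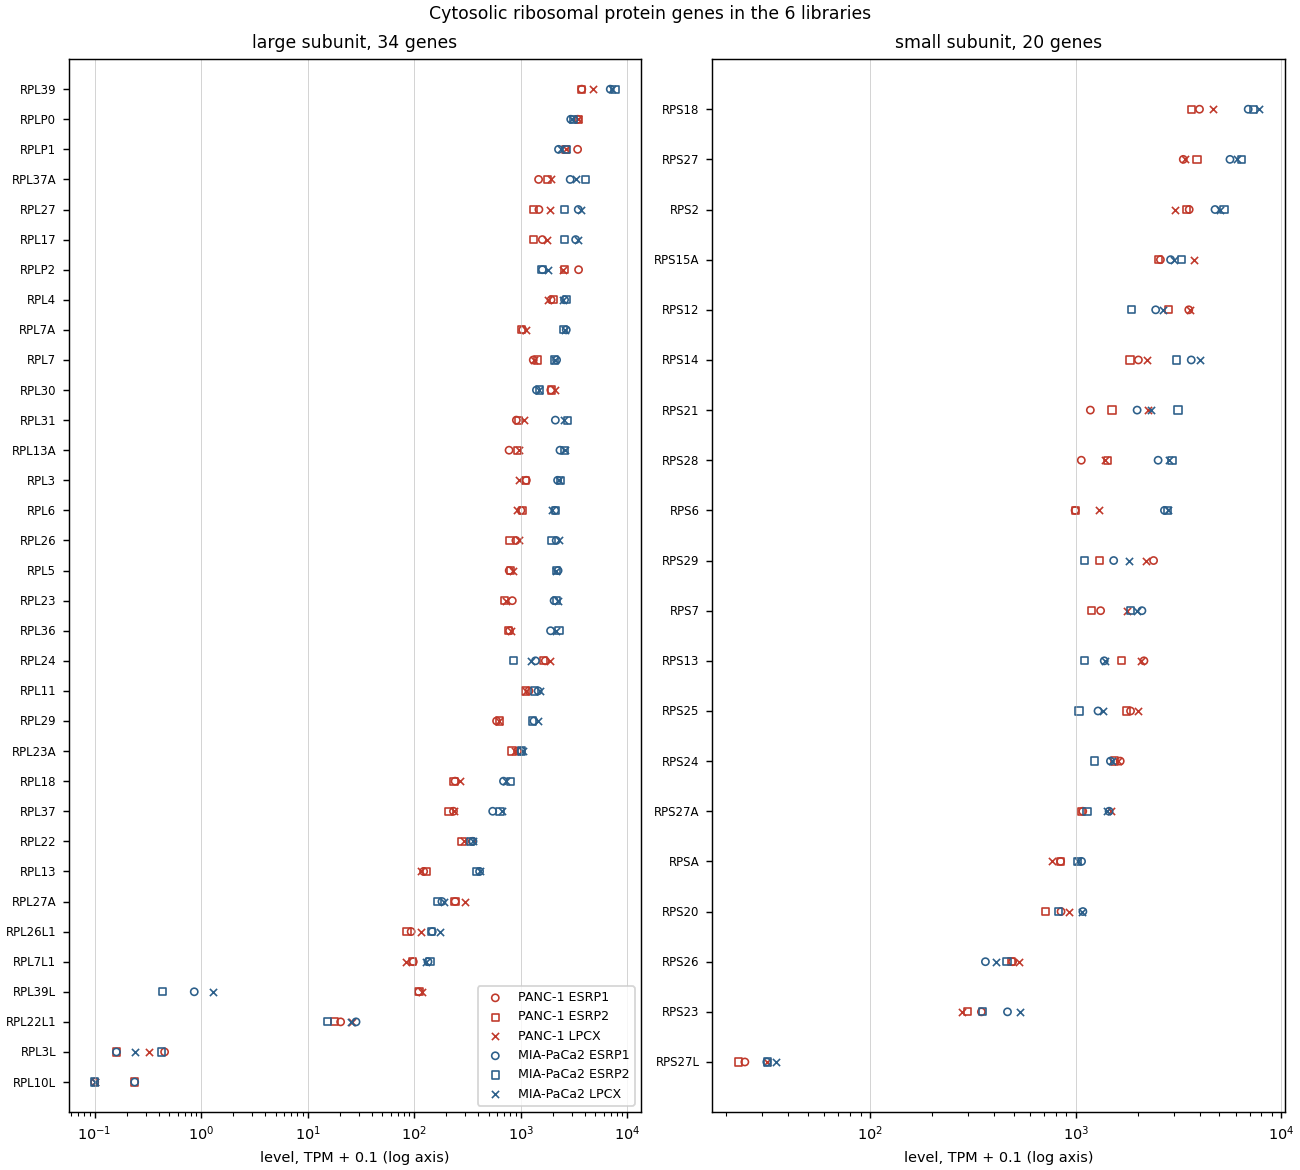
Level of 54 genes named in the text in TPM plus 0.1 on a log axis, with large subunit genes on the left and small subunit genes on the right, ordered by mean. Each mark is 1 library, PANC-1 in red and MIA-PaCa2 in blue, and most PANC-1 marks lie to the left of the MIA-PaCa2 marks while RPL39L has the reverse order by the widest gap.

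PANC-1 was set against MIA-PaCa2 over the 3 constructs, with 3 libraries a line. Of 81 members tested, limma on log2(TPM + 1) with Benjamini-Hochberg adjustment over 11829 genes called 57 lower in PANC-1, where 35.6% of all genes were called lower, and 11 higher, where 43.1% were. The median difference of the members was -0.55, beside 0.08 for all genes. In 54 members all PANC-1 libraries lay below all MIA-PaCa2 libraries (36.3% of all genes), in 13 all lay above (43.1% of all genes), and 14 overlapped. Construct is a term of the fit, so the test measures how far the line difference varied between constructs, library preparation included. It does not measure the spread between independent cultures. Without the MIA-PaCa2 ESRP1 library 51 were called lower and 9 higher, with a median of -0.59, beside 3737 lower and 4587 higher of all 11745 genes.

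Among large subunit genes 37 of 50 tested fell and 5 rose, with a median of -0.66. RPL13, a large subunit protein (chromosome 16, 89560657 to 89566829), had the lowest difference, at -1.70 (SE 0.0718, adjusted p = 1.35e-05). It was at 122 TPM with ESRP1, 130.0 TPM with ESRP2 and 116 TPM with LPCX in PANC-1, against 411 TPM with ESRP1, 382 TPM with ESRP2 and 411 TPM with LPCX in MIA-PaCa2. All PANC-1 libraries lay far below all MIA-PaCa2 libraries. RPL18 was at 242 TPM with ESRP1, 236 TPM with ESRP2 and 268 TPM with LPCX in PANC-1, against 688 TPM with ESRP1, 804 TPM with ESRP2 and 721 TPM with LPCX in MIA-PaCa2. RPL13A, known also for a role in translational silencing after interferon, was at 777 TPM with ESRP1, 924 TPM with ESRP2 and 970.0 TPM with LPCX in PANC-1, against 2335 TPM with ESRP1, 2596 TPM with ESRP2 and 2614 TPM with LPCX in MIA-PaCa2. In both genes the lines were apart by more than the whole range within either. RPL18 differed by -1.56 (SE 0.0827, adjusted p = 2.77e-05), RPL13A by -1.50 (SE 0.0698, adjusted p = 1.86e-05) and RPL23 by -1.51 (SE 0.0892, adjusted p = 3.97e-05). RPL5 and RPL11 bind the 5S ribosomal RNA and, when free, the p53 inhibitor MDM2. RPL5 was at 779 TPM with ESRP1, 799 TPM with ESRP2 and 852 TPM with LPCX in PANC-1, against 2241 TPM with ESRP1, 2154 TPM with ESRP2 and 2158 TPM with LPCX in MIA-PaCa2. RPL11 was at 1194 TPM with ESRP1, 1116 TPM with ESRP2 and 1112 TPM with LPCX in PANC-1, against 1455 TPM with ESRP1, 1348 TPM with ESRP2 and 1519 TPM with LPCX in MIA-PaCa2. Both fell, RPL5 by more, with differences of -1.43 (SE 0.0707, adjusted p = 2.21e-05) and -0.34 (SE 0.0715, adjusted p = 0.00669). RPL37 (-1.43), RPL36 (-1.42), RPL31 (-1.33), RPL7A (-1.29), RPL26 (-1.26), RPL29 (-1.13) and RPL3 (-1.11) also fell, each with an adjusted p of 8.75e-05 or less in limma.

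The ribosomal stalk recruits the GTPases of translation through RPLP0 and its partners RPLP1 and RPLP2. RPLP2 (chromosome 11, 809967 to 812876) was at 3490.3 TPM with ESRP1, 2557 TPM with ESRP2 and 2471 TPM with LPCX in PANC-1, against 1597 TPM with ESRP1, 1587 TPM with ESRP2 and 1800.4 TPM with LPCX in MIA-PaCa2. It rose in PANC-1 by 0.76 (SE 0.138, adjusted p = 0.00347), and its 3 PANC-1 libraries lay above all MIA-PaCa2 libraries. RPLP0 differed by 0.18 (SE 0.0747, adjusted p = 0.0717) and RPLP1 by 0.25 (SE 0.131, adjusted p = 0.134), and neither passed. RPL24, which bridges the subunits, was at 1701 TPM with ESRP1, 1639.8 TPM with ESRP2 and 1895 TPM with LPCX in PANC-1, against 1375 TPM with ESRP1, 849 TPM with ESRP2 and 1243 TPM with LPCX in MIA-PaCa2. It rose by 0.62 (SE 0.129, adjusted p = 0.00609). RPL27A (0.55) and RPL30 (0.44) rose as well.

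Among small subunit genes 20 of 31 fell and 6 rose, with a median of -0.36. RPS6, the protein phosphorylated by S6 kinases under growth signals, had the lowest difference. It was at 993 TPM with ESRP1, 999 TPM with ESRP2 and 1302 TPM with LPCX in PANC-1, against 2701 TPM with ESRP1, 2783 TPM with ESRP2 and 2802 TPM with LPCX in MIA-PaCa2. The lines did not overlap, and the difference was -1.34 (SE 0.0974, adjusted p = 8.48e-05). RPS28 (-1.11), RPS18 (-0.84) and RPS14 (-0.81) fell too. Genes that rose included RPS25 (0.62), which viral internal ribosome entry needs, RPS13 (0.61), RPS12 (0.52), RPS29 (0.39) and RPS26 (0.29). RPS25 was at 1848 TPM with ESRP1, 1765 TPM with ESRP2 and 2002 TPM with LPCX in PANC-1, against 1284 TPM with ESRP1, 1038 TPM with ESRP2 and 1352 TPM with LPCX in MIA-PaCa2. RPS13 was at 2147 TPM with ESRP1, 1669 TPM with ESRP2 and 2073 TPM with LPCX in PANC-1, against 1376 TPM with ESRP1, 1106 TPM with ESRP2 and 1386 TPM with LPCX in MIA-PaCa2. Both were higher in every PANC-1 library than in any MIA-PaCa2 library. The limma calls of RPS26 and RPS29 ended without MIA-PaCa2 ESRP1, with adjusted p of 0.142 and 0.0780, and that of RPS21 (-0.62) ended likewise, with an adjusted p of 0.111. RPS29 also missed the threshold with no term for the construct, at an adjusted p of 0.204. RPSA, which is also the laminin receptor, fell by 0.34 on the log2 scale.

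Paralogs did not follow their partners alike. RPL39L, a paralog of RPL39 known in mice from male germ cells (chromosome 3, 187120948 to 187139496), was at 110.2 TPM with ESRP1, 111 TPM with ESRP2 and 119 TPM with LPCX in PANC-1, against 0.760 TPM with ESRP1, 0.337 TPM with ESRP2 and 1.19 TPM with LPCX in MIA-PaCa2. The level in PANC-1 was 149 times that in MIA-PaCa2 by the ratio of means, with a log2 difference of 6.05 (SE 0.130, adjusted p = 2.28e-06), while RPL39 differed by -0.84 (SE 0.116, adjusted p = 0.0011). RPL39L is listed with 1 transcript and no named pseudogene. RPL22L1 was at 20.3 TPM with ESRP1, 17.7 TPM with ESRP2 and 25.8 TPM with LPCX in PANC-1, against 28.3 TPM with ESRP1, 15.2 TPM with ESRP2 and 25.4 TPM with LPCX in MIA-PaCa2, and these overlap. Its difference was -0.08 (SE 0.137, adjusted p = 0.62), and that of its paralog RPL22 was -0.19 (SE 0.0735, adjusted p = 0.0597). The RPL22L1 sum includes a transcript with no coding sequence, described below. Its main coding transcript, NM_001099645, was at 7.23 TPM with ESRP1, 4.46 TPM with ESRP2 and 8.23 TPM with LPCX in PANC-1. In MIA-PaCa2 it was at 13.2, 7.47 and 12.6 TPM in the same order, so PANC-1 was lower with each construct. The level of this transcript was not tested. RPL26L1 fell by 0.66 and RPL26 by 1.26 on the log2 scale. RPL7L1, whose yeast relative is an assembly factor, fell by 0.54 and RPL7 by 0.63. RPS27L, a p53 target, fell by 0.32 and RPS27 by 0.77. The RPS27L call of limma ended without MIA-PaCa2 ESRP1 (adjusted p = 0.0707).

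Of the 28 members with a small nucleolar RNA gene inside them 20 fell in PANC-1 against MIA-PaCa2 and 5 rose, with a median of -0.47, and of the other 53 tested 37 fell and 6 rose, with a median of -0.59. The difference between these 2 groups of members was not tested. By construct, the member median of PANC-1 minus MIA-PaCa2 was -0.56 with ESRP1, -0.60 with ESRP2 and -0.53 with LPCX.

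**Figure D2:**
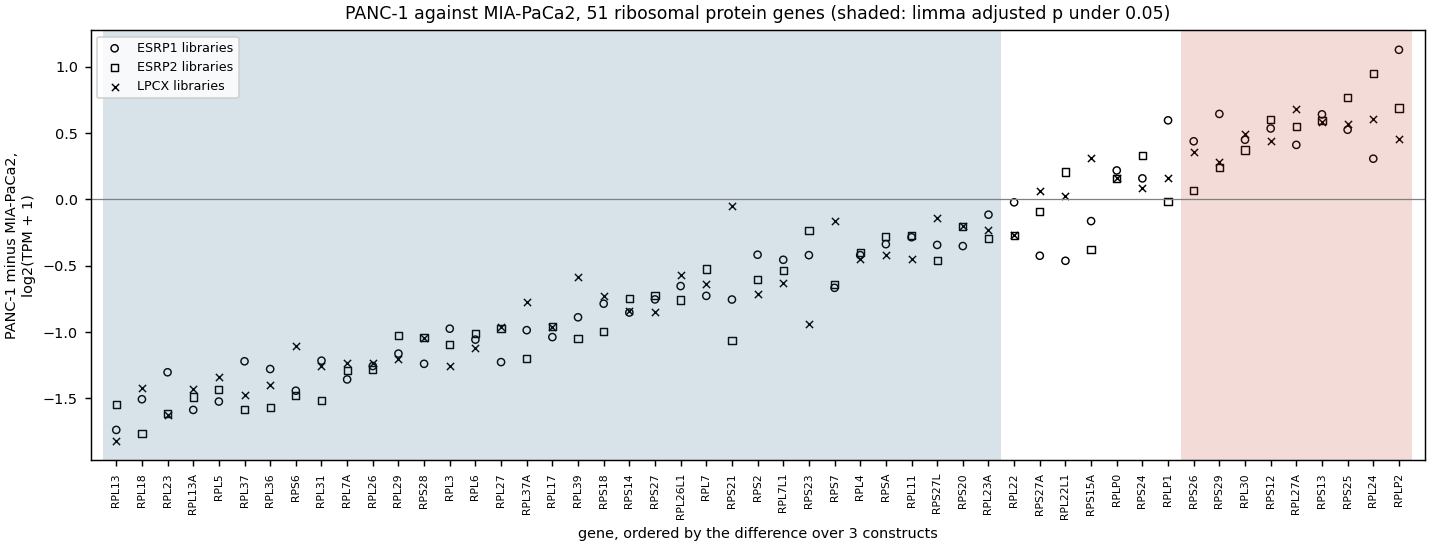
Difference of PANC-1 minus MIA-PaCa2 on the log2(TPM + 1) scale for 51 genes named in the text, with 1 mark for each of the 3 constructs and shading for genes called by limma. Genes are ordered by the difference over the 3 constructs, in which RPL13 is the lowest at -1.70 and RPLP2 the highest shown at 0.76. Single marks reach -1.82 for RPL13 with LPCX and 1.13 for RPLP2 with ESRP1. RPL39L, at 6.05, is not drawn.

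ESRP1 was compared with LPCX within each line, 1 library against 1, so these ratios have no replicate check. Most members lay slightly below LPCX, with a median log2 ratio of -0.10 in PANC-1 and -0.06 in MIA-PaCa2. In PANC-1 55 of 81 measured members were below LPCX, against 31.2% of all genes, and in MIA-PaCa2 57 of 80, against 38.3%. A log2 ratio of -0.32 or below was found for 14 members in PANC-1 (4.91% of all genes) and 0 in MIA-PaCa2 (3.85%). One of 0.32 or above was found for 2 members in PANC-1 (6.12% of all genes) and 0 in MIA-PaCa2 (3.95%). Of 80 members measured in both lines, 37 were below LPCX in both (15.1% of all genes), 6 were above in both (47.9%), and 0 were past -0.32 in both (1.17%) or past 0.32 in both (0.516%).

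RPS21, a small subunit protein (chromosome 20, 62387103 to 62388520), had the lowest ratio with ESRP1. It was at 1178 TPM with ESRP1, against 2241 TPM with LPCX, in PANC-1, and 1989 TPM with ESRP1, against 2316 TPM with LPCX, in MIA-PaCa2. The log2 ratio was -0.93 in PANC-1 and -0.22 in MIA-PaCa2, with ESRP1 below LPCX in both lines. RPS15A was at 2581 TPM with ESRP1, against 3742 TPM with LPCX, in PANC-1, and 2892 TPM with ESRP1, against 3016 TPM with LPCX, in MIA-PaCa2. It was second lowest in PANC-1 (-0.54) and near LPCX in MIA-PaCa2 (-0.06). Next lowest in PANC-1 were RPS27A (-0.46), which is made as a fusion with ubiquitin, RPS7 (-0.42) and RPS6 (-0.39). The lowest in MIA-PaCa2 were RPL37 (-0.28), RPL31 (-0.27), RPS29 (-0.24) and RPL26L1 (-0.23). Lowest in both lines by the smaller ratio were RPL31 (-0.24 in PANC-1 and -0.27 in MIA-PaCa2), RPL26L1 (-0.31 in PANC-1 and -0.23 in MIA-PaCa2), RPS21, RPS28 (-0.38 in PANC-1 and -0.18 in MIA-PaCa2) and RPL37A (-0.39 in PANC-1 and -0.18 in MIA-PaCa2).

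RPLP2 and RPLP1 of the stalk had the highest ratios with ESRP1 in PANC-1. RPLP2 was at 3490.3 TPM with ESRP1, against 2471 TPM with LPCX, in PANC-1, and 1597 TPM with ESRP1, against 1800.4 TPM with LPCX, in MIA-PaCa2. RPLP1 was at 3419 TPM with ESRP1, against 2669.5 TPM with LPCX, in PANC-1, and 2263 TPM with ESRP1, against 2389 TPM with LPCX, in MIA-PaCa2. Both were above LPCX in PANC-1 and below it in MIA-PaCa2. Their log2 ratios were 0.50 and 0.36 in PANC-1, and -0.17 and -0.08 in MIA-PaCa2. RPS23, at the decoding centre, had 0.31 in PANC-1 and -0.21 in MIA-PaCa2. In MIA-PaCa2 the highest were RPL22L1 (0.15) and RPL24 (0.15). Higher in both lines by the smaller ratio were RPL6 (0.14 in PANC-1 and 0.08 in MIA-PaCa2), RPL7L1 (0.24 in PANC-1 and 0.06 in MIA-PaCa2), RPSA (0.14 in PANC-1 and 0.06 in MIA-PaCa2), RPL4 (0.08 in PANC-1 and 0.05 in MIA-PaCa2) and RPL22 (0.26 in PANC-1 and 0.01 in MIA-PaCa2).

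Over both lines limma called 0 of 81 members for ESRP1 in either direction, while 0.00845% of all genes were called higher and 0% lower. The lowest adjusted p of a member was 0.658. An unadjusted p under 0.05 was found for 820 of all 11829 genes in either direction and for 3 members lower and 0 higher. With no term for the line these became 20 genes and 0 members. The 3 were RPL26L1 with -0.27 (SE 0.0757, adjusted p = 0.658), RPS28 with -0.28 (SE 0.0951, adjusted p = 0.658) and RPL13A with -0.24 (SE 0.0855, adjusted p = 0.658). The median was -0.08, beside 0.06 for all genes, and 57 members were negative, against 31.7% of all genes. Without MIA-PaCa2 ESRP1, where PANC-1 alone carries the contrast and the lone library is assumed to vary like the rest, the median was -0.07 and 56 were negative, with 0 called.

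ESRP2 was set against the same LPCX libraries, so its ratios and those of ESRP1 share their denominators and are given only side by side. Most members lay below LPCX with ESRP2 too, with a median log2 ratio of -0.12 in PANC-1 and -0.09 in MIA-PaCa2. In PANC-1 63 of 81 were below LPCX (32.8% of all genes) and in MIA-PaCa2 58 of 80 (39.8%). A log2 ratio of -0.32 or below was found for 20 in PANC-1 (7.76% of all genes) and 15 in MIA-PaCa2 (5.9%), and one of 0.32 or above for 0 in PANC-1 (9.24%) and 1 in MIA-PaCa2 (8.07%). In both lines 49 of 80 were below LPCX (17.0% of all genes), 9 were above (45.4%), and 7 were past -0.32 (1.55%), with 0 past 0.32 (1.53%). The 7 were RPS29, RPL22L1, RPL27, RPL17, RPS20, RPS12 and RPS27A.

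RPS29, a zinc-binding protein of the small subunit's head (chromosome 14, 49570988 to 49598710), was the 1 member lower by at least 1.5-fold in both lines, where 0.635% of all genes were. It was at 1303 TPM with ESRP2, against 2197 TPM with LPCX, in PANC-1, and 1101 TPM with ESRP2, against 1809.7 TPM with LPCX, in MIA-PaCa2. The log2 ratios were -0.75 in PANC-1 and -0.72 in MIA-PaCa2, with ESRP2 below LPCX in both. With ESRP1 they were 0.12 in PANC-1 and -0.24 in MIA-PaCa2. RPL27 was at 1316 TPM with ESRP2, against 1902 TPM with LPCX, in PANC-1, and 2589.7 TPM with ESRP2, against 3714 TPM with LPCX, in MIA-PaCa2. RPL17, which lines the exit tunnel, was at 1327 TPM with ESRP2, against 1757 TPM with LPCX, in PANC-1, and 2579 TPM with ESRP2, against 3414 TPM with LPCX, in MIA-PaCa2. Each was below LPCX in both lines. RPS12 was at 2818 TPM with ESRP2, against 3612 TPM with LPCX, in PANC-1, and 1860.2 TPM with ESRP2, against 2664 TPM with LPCX, in MIA-PaCa2. RPL22L1 was at 17.7 TPM with ESRP2, against 25.8 TPM with LPCX, in PANC-1, and 15.2 TPM with ESRP2, against 25.4 TPM with LPCX, in MIA-PaCa2. Both were again lower with ESRP2 in each line. The RPL22L1 log2 ratios were -0.52 in PANC-1 and -0.70 in MIA-PaCa2, on low levels, while its partner RPL22 had -0.06 in PANC-1 and -0.05 in MIA-PaCa2.

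Some members had unlike ratios in the lines. RPS23 (-0.61) and RPL24 (-0.55) were low in MIA-PaCa2, with 0.09 and -0.21 in PANC-1. RPS21 was at 1501 TPM with ESRP2, against 2241 TPM with LPCX, in PANC-1, and 3143 TPM with ESRP2, against 2316 TPM with LPCX, in MIA-PaCa2. It was below LPCX in PANC-1 (-0.58) and the highest member in MIA-PaCa2 (0.44). The differences between the lines were not tested. RPS7 (-0.57) and RPS15A (-0.57) were low in PANC-1, with -0.10 and 0.12 in MIA-PaCa2. Highest in both lines were RPL7L1 (0.22 in PANC-1 and 0.12 in MIA-PaCa2), RPL4 (0.15 in PANC-1 and 0.10 in MIA-PaCa2), RPL6 (0.19 in PANC-1 and 0.09 in MIA-PaCa2), RPS27 (0.20 in PANC-1 and 0.08 in MIA-PaCa2) and RPS2 (0.18 in PANC-1 and 0.07 in MIA-PaCa2). The stalk gene RPLP0 had 0.04 in PANC-1 and 0.04 in MIA-PaCa2.

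**Figure D3:**
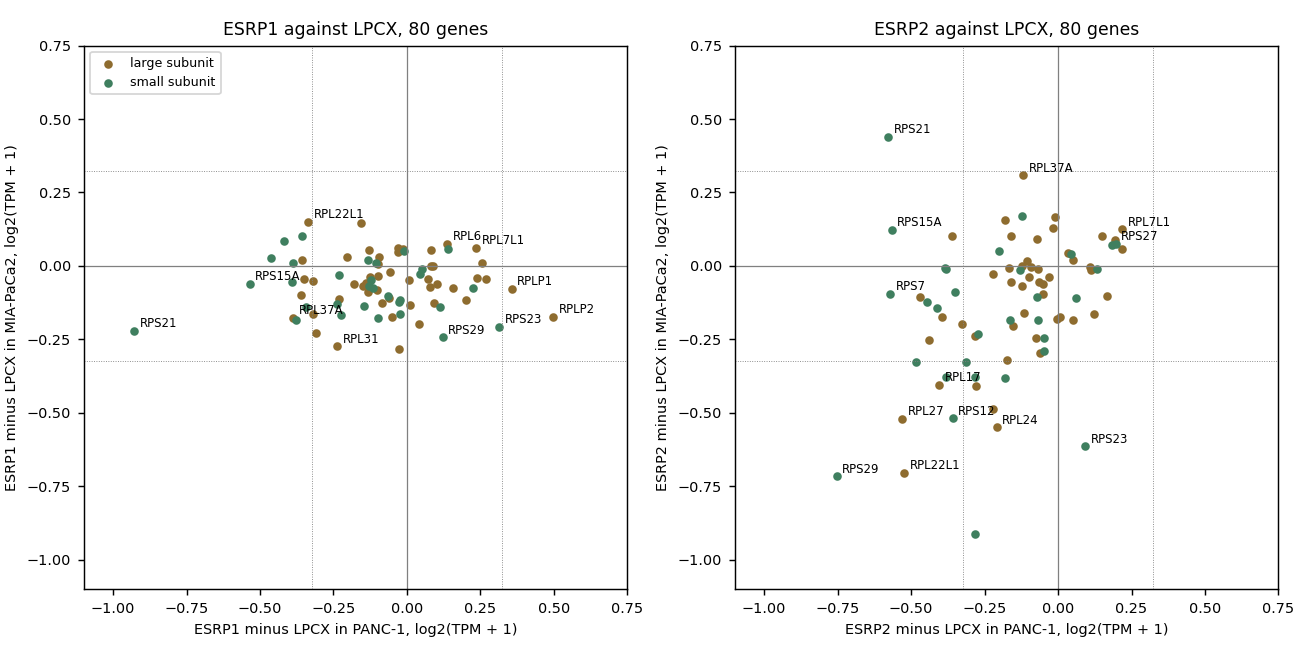
Log2 ratio of ESRP1 (left) or ESRP2 (right) to LPCX for 80 genes, with PANC-1 on the horizontal and MIA-PaCa2 on the vertical axis and 1 library a value. Dotted lines mark log2 ratios of -0.32 and 0.32, RPS29 lies low in both lines with ESRP2 (-0.75 and -0.72), and RPS21 lies on opposite sides of 0 (-0.58 and 0.44).

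Over both lines limma called 0 of 81 members for ESRP2 in either direction, beside 0.00845% of all genes in each direction. The lowest adjusted p of a member was 0.329. An unadjusted p under 0.05 was found for 20 members lower and 0 higher, and for 1634 of all 11829 genes in either direction. With no term for the line the 20 became 0, and the 1634 became 31. The number of members with such a p was lower when any 1 library was left out. Without MIA-PaCa2 ESRP2, PANC-1 alone carries ESRP2, and without PANC-1 LPCX, MIA-PaCa2 alone carries LPCX. The members' medians in those fits were -0.13 and -0.11. RPS29 had -0.73 (SE 0.124, adjusted p = 0.329), RPL27 -0.53 (SE 0.105, adjusted p = 0.329), RPL17 -0.40 (SE 0.0860, adjusted p = 0.329), RPS12 -0.44 (SE 0.0940, adjusted p = 0.329) and RPS20 -0.38 (SE 0.0816, adjusted p = 0.329). The median was -0.11, beside 0.06 for all genes, and 63 members were negative, against 34.9% of all genes. Small subunit genes had a median of -0.20 with 26 of 31 negative, and large subunit genes -0.07 with 37 of 50 negative. Without MIA-PaCa2 ESRP1 the members' median was -0.11 with 63 negative, and 0 were called. An unadjusted p under 0.05 was then found for 16 lower and 0 higher, and for 1207 of all 11745 genes. With the trend on transcript length removed, as described below, the log2 ratio was -0.32 or below for 11 members in PANC-1 (8.07% of all genes) and 8 in MIA-PaCa2 (6.1%).

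ESRP1 against ESRP2 over both lines gave a member median of 0.06 with 30 of 81 negative, beside a median of -0.0027 and 50.98% negative for all genes, and limma called 0 members, beside 0.00845% of all genes higher and 0% lower. The lowest adjusted p was 0.912, and an unadjusted p under 0.05 was found for 10 members higher and 2 lower with ESRP1, and for 497 of all 11829 genes in either direction. With no term for the line both member counts became 0, and the 497 became 15. Fewer members had such a p without PANC-1 ESRP1, MIA-PaCa2 ESRP1 or MIA-PaCa2 ESRP2, and more did without PANC-1 ESRP2 or either LPCX library. In a fit without an ESRP library the other line alone carries that construct. Without MIA-PaCa2 ESRP2 the members' median was 0.07. Without MIA-PaCa2 ESRP1 the members' median was 0.04 with 31 negative, and 0 were called. RPS29 was at 2391 and 1529.9 TPM with ESRP1 in PANC-1 and MIA-PaCa2, against 1303 and 1101 TPM with ESRP2. Its difference of 0.67 was the largest of any member.

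Transcript length moved with these ratios. The members were short, with a median of 858 bases against 2803 for other tested genes, from GENCODE 29 transcripts paired with the table's RefSeq accessions, whose lengths may differ from those the authors used. Across 11545 genes the rank correlation of the log2 change with length was 0.219 for ESRP1 and 0.377 for ESRP2 over both lines, and -0.0006 for PANC-1 against MIA-PaCa2. These are across genes of the same libraries and carry no p. Other genes of 544 to 2816 bases, which leaves out the lengths of the shortest and longest members, had medians of 0.05 for ESRP1 and 0.02 for ESRP2, with 35.9% and 44.7% negative. That range reaches far above the members' median length. Within PANC-1, other genes of 600 to 800 bases had medians of -0.02 for ESRP1 and -0.06 for ESRP2, and in MIA-PaCa2 -0.05 and -0.10. Those of 800 to 1000 bases had -0.02 and -0.02 in PANC-1, and -0.01 and -0.08 in MIA-PaCa2. The members had -0.10 and -0.12 in PANC-1, and -0.06 and -0.09 in MIA-PaCa2. With the trend on length removed, the members' medians were -0.04 for ESRP1 (57 of 80 negative, against 47.8% of all genes) and -0.07 for ESRP2 (54 of 80 negative, against 47.7%). The part of length in the members' ratios was not tested beyond this. After the same step the member median of PANC-1 against MIA-PaCa2 was -0.76, and the median of all genes moved to -0.08. Of 80 members 61 were called lower and 10 higher, beside 5051 and 4246 of all 11545 genes.

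**Figure D4:**
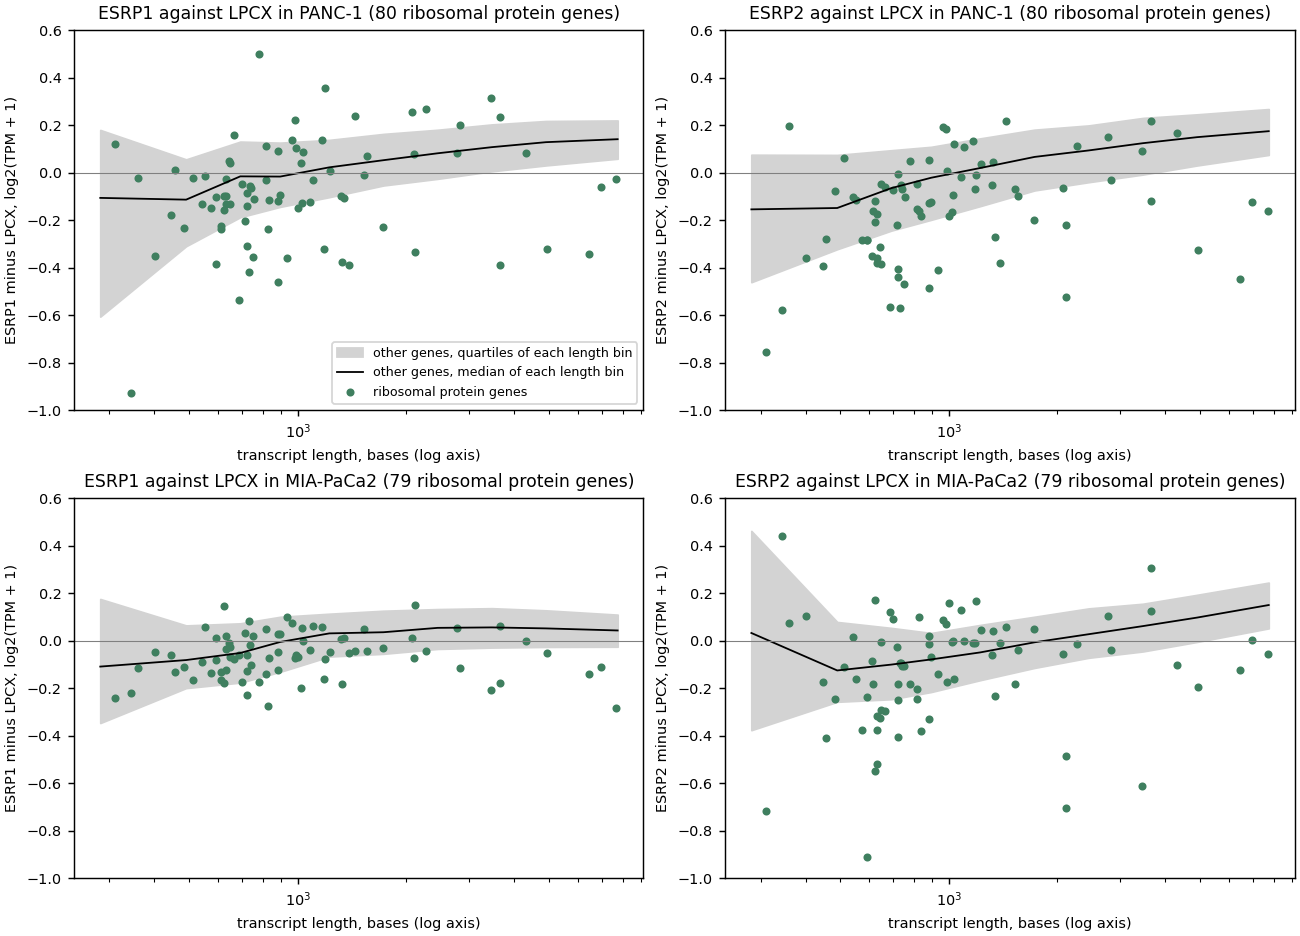
Log2 ratio to LPCX against transcript length in bases on a log axis, for ESRP1 and ESRP2 in PANC-1 (top) and MIA-PaCa2 (bottom). Green points are the ribosomal protein genes, the line and grey band are the median and quartiles of all other genes in bins of length, and for ESRP2 in PANC-1 the median is -0.15 at 400 to 600 bases and 0.17 at 6000 to 10000 bases. For ESRP2 in MIA-PaCa2 the bin of 200 to 400 bases has a median of 0.03, above the bins between 400 and 3000 bases.

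ESRP proteins act on splicing, so the transcripts of the members were compared next. A single transcript is listed for 41 members. Of the others, 66 transcripts in 42 genes could be tested for their share of the gene's TPM, and limma on log2 odds called 0 for ESRP1, 0 for ESRP2 and 0 between them, as for all 12965 transcripts (0%). An unadjusted p under 0.05 was found for 0, 3 and 3 of the 66, beside 735, 821 and 579 of all 12965. A share moved by at least 10 points the same way in both lines in 0 member transcripts with ESRP1 (1.82% of all) and 0 with ESRP2 (2.40%). Between PANC-1 and MIA-PaCa2 17 of 66 were called (16.4% of all transcripts). When any 1 library was left out, 0 or 1 remained called, beside 1.13% to 1.75% of all transcripts. In 5 transcripts of RPS24, RPL6 and RPL22L1 all PANC-1 libraries were at least 10 points from all MIA-PaCa2 libraries, as in 7.50% of all transcripts.

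RPS24 encodes a small subunit protein whose last codons come from alternative exons of very few bases. The ends of its main transcripts are shown because these exons set the last residues. Each line starts with the last 30 bases of the shared exon, capitals mark the alternative exons, and the lower case letters after them are the start of the next exon (GENCODE 29 transcripts on GRCh38, plus strand of chromosome 10).
NM_033022: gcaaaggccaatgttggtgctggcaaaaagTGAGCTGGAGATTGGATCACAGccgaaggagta
NM_001026: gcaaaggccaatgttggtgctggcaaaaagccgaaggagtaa
NM_001142282: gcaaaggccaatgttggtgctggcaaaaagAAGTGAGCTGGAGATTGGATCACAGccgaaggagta

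The 22-base exon lies at 78040204 to 78040225 of chromosome 10, and its first 3 bases are a stop codon. NM_001026 skips it and reads on to a stop codon that ends 12 bases after the shared exon. NM_001142282 adds a 3-base exon at 78037439 to 78037441 ahead of the 22-base exon. All 3 bases of that exon are coding, as the stop codon follows in the next one.

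The 22-base exon of RPS24 was included in a larger share of the gene's TPM in PANC-1 than in MIA-PaCa2. Its inclusion over all transcripts was 52.7% with ESRP1, 39.97% with ESRP2 and 48.1% with LPCX in PANC-1, against 21.0% with ESRP1, 15.9% with ESRP2 and 11.9% with LPCX in MIA-PaCa2. NM_033022 made up 51.6% of RPS24 TPM with ESRP1, 38.7% with ESRP2 and 47.9% with LPCX in PANC-1, against 12.2% with ESRP1, 11.1% with ESRP2 and 11.3% with LPCX in MIA-PaCa2. The means were 46.1% ± 6.60 in PANC-1 and 11.6% ± 0.589 in MIA-PaCa2 (SD, n = 3 libraries each). NM_001026 made up 47.2% with ESRP1, 59.9% with ESRP2 and 51.8% with LPCX in PANC-1, against 79.0% with ESRP1, 84.0% with ESRP2 and 88.0% with LPCX in MIA-PaCa2. In both transcripts the lines stood apart. The share of NM_033022 was lowest with ESRP2 in PANC-1, while in MIA-PaCa2 ESRP2 (11.1%) and LPCX (11.3%) were nearly equal. Inclusion of the 22-base exon over all transcripts was higher with ESRP2 than with LPCX in MIA-PaCa2 and lower in PANC-1. In log2 odds NM_033022 differed by 2.70 (SE 0.222, adjusted p = 0.00955) and NM_001026 by -2.22 (SE 0.264, adjusted p = 0.0170) in limma. Without any 1 library the log2 odds of NM_033022 stayed between 2.59 and 2.88, and its adjusted p in limma between 0.0452 and 0.059, so that the call held without either ESRP2 library and ended without any other. Total RPS24 differed by 0.19 (SE 0.0777, adjusted p = 0.0651), which did not pass. It was at 1646, 1547 and 1598 TPM with ESRP1, ESRP2 and LPCX in PANC-1, against 1475, 1229 and 1504 TPM in MIA-PaCa2.

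The 3-base exon of RPS24 had higher values with both ESRP constructs in MIA-PaCa2, chosen after they were seen. Its inclusion was 8.48% with ESRP1, 4.47% with ESRP2 and 0.531% with LPCX in MIA-PaCa2. In PANC-1 it was 0.181% with ESRP1, 0.686% with ESRP2 and 0.219% with LPCX. Each value is 1 library, the shares rest on the authors' split of reads between overlapping transcripts, and the ESRP1 value in MIA-PaCa2 comes from the library with haemoglobin.

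RPL6 and RPL22L1 also differed between the lines. NM_000970 made up 70.3% of RPL6 with ESRP1, 71.8% with ESRP2 and 68.4% with LPCX in PANC-1, against 89.3% with ESRP1, 88.9% with ESRP2 and 87.4% with LPCX in MIA-PaCa2. For RPL22L1 the transcript with no coding sequence, NR_135259, made up 60.7% with ESRP1, 71.6% with ESRP2 and 65.2% with LPCX in PANC-1, against 49.2% with ESRP1, 46.2% with ESRP2 and 44.4% with LPCX in MIA-PaCa2. The lines did not overlap in either. Leaving out 1 library put the adjusted p of limma between 0.067 and 0.0804 for NM_000970 and between 0.1 and 0.154 for NR_135259.

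**Figure D5:**
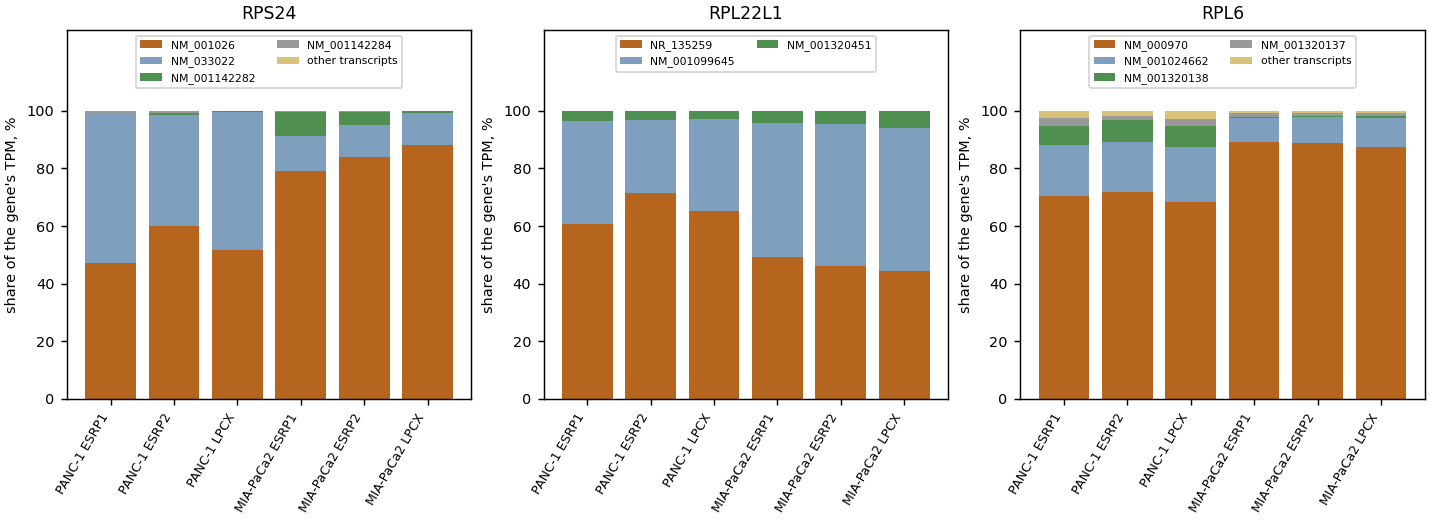
Share of each gene's TPM by transcript, in percent, for RPS24, RPL22L1 and RPL6 in the 6 libraries, with transcripts beyond the 4 most abundant pooled. NM_033022 of RPS24 takes 38.7% to 51.6% in PANC-1 and 11.1% to 12.2% in MIA-PaCa2.

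Genes that work with the ribosomal proteins were counted in the same fits. Their counts stand beside 43.1% of all genes called higher and 35.6% called lower in PANC-1, and beside 31.7% of all genes below LPCX with ESRP1 and 34.9% with ESRP2 over both lines. No count below was tested against these shares. Of 29 ribosome assembly factors, 7 rose and 15 fell in PANC-1 against MIA-PaCa2, with a median of -0.26. FBL, the fibrillarin that methylates ribosomal RNA, rose by 3.85 (SE 0.107, adjusted p = 4.04e-06), and NOB1, the nuclease that finishes the small subunit's RNA, fell by 1.35 (adjusted p = 1.13e-05). With ESRP1 28 of the 29 were above LPCX over both lines (median 0.13) and with ESRP2 26 (median 0.08), and 0 were called. The largest log2 ratios were those of nucleolin, NCL, at 0.23 with ESRP1 and UTP20 at 0.39 with ESRP2. Of 17 other genes whose messenger RNAs have a TOP start, translation factors among them, 4 rose and 10 fell in PANC-1 (median -0.35). EEF2, the elongation factor that moves the ribosome along, fell by 1.46 and EIF3F, an initiation factor subunit, rose by 0.92 on the log2 scale. With the constructs 14 were above LPCX for ESRP1 (median 0.10) and 12 for ESRP2 (median 0.09), with 0 called.

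Of 13 genes of the mTORC1 and LARP1 axis, which controls TOP messenger RNAs, 5 rose and 3 fell in PANC-1 (median 0.08). EIF4EBP1 fell by 1.78 and MLST8, a subunit of the mTOR complexes, rose by 1.38. With ESRP1 10 of 13 were above LPCX (median 0.09), and with ESRP2 also 10 (median 0.08), with 0 called. Of 13 genes for RNA polymerase I and ribosomal RNA transcription, 3 rose and 5 fell in PANC-1 (median -0.11), with POLR1E at 1.64 and TAF1B at 1.27 among those that rose, and TAF1C at -1.02 and TAF1A at -0.99 among those that fell. The initiation factor RRN3 had 0.62 in PANC-1 and 0.70 in MIA-PaCa2 with ESRP2, and 10 and 8 of the 13 were above LPCX with ESRP1 and ESRP2, with 0 called. Of 77 mitochondrial ribosomal protein genes, 31 rose and 35 fell in PANC-1, with a median of -0.09, beside -0.55 for the cytosolic genes. With ESRP1 50 of the 77 were above LPCX (median 0.04) and with ESRP2 35 (median -0.02), with 0 called.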

How the data were processed

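Each of the 6 combinations of line and construct gave 1 library. Per the labels' protocols, a TruSeq mRNA kit was used on 2 ug of RNA. Salmon and GRCh38 (hg38) are named in the submitters' processing notes, with no version. The table that the authors deposited gives TPM for RefSeq transcripts, a unit recorded here as other because 8664 of 67792 lines repeat a transcript and columns then exceed 1000000. Repeats were dropped and the deposited TPM were summed by symbol. They keep no record of depth, so no counting interval is given. Columns headed ESRP12 and MIA-PaCo2 were matched to MIA-PaCa2 ESRP2 and MIA-PaCa2 LPCX by elimination. Nothing says that libraries came from separate cultures, so p-values measure only the spread between these libraries. In the main fit it is the spread that the construct and line terms leave. A change with a construct that differs between the lines counts as such spread.

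Changes are differences of log2(TPM + 1), a scale that understates the change of low genes. The filter kept genes that reached 5 TPM in 2 or more libraries, and limma 3.58.1 (R 4.3.3) with a mean trend took construct and cell line as terms, with 2 residual degrees of freedom. P-values were adjusted by Benjamini-Hochberg over all genes and called at 0.05. The labels give no replicate numbers; the line pairs the libraries, as ESRP1, ESRP2 and LPCX were each made in the same lines. Ratios within a line took genes that reached 5 TPM in either library and have no test. Transcript shares took transcripts with 10% or more of their gene in some library, and limma on log2 odds with 0.5 TPM added. Alternatives were pseudocounts of 0.1 and 5, other filters, median ratio scaling, coding transcripts alone, repeats kept, no mean trend, no block, removal of a length trend (lowess span 0.2) and leaving out each library. The fits were tested on simulated data. Pandas 2.3.3 and scipy 1.17.1 made the tables. The members, lists and naming rule were chosen with earlier results of these data known, and the red cell genes after their values were seen. The rule named up to 15 called members with the largest changes, the 5 highest and 5 lowest in each comparison and in both lines, paralogs with their partners, the stalk, RPS24, and the 5 most and 5 least abundant. Other members named were chosen after their values were seen. Some genes are not reported here by name.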

Additional observations from a re-analysis of the deposited data

Results flagged for a closer look

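RPS21 had ratios of opposite sign in the lines with ESRP2, each past 0.32 in size on the log2 scale, at -0.58 in PANC-1 and 0.44 in MIA-PaCa2. Each ratio compares 1 library with 1, and the difference between the lines was not tested. The gene has 1 transcript in the table, of 344 bases, among the shortest of the members.

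A signal outside the ribosomal protein genes appeared in MIA-PaCa2 ESRP1 and not in its LPCX library. HBA2 was at 669.9 TPM with ESRP1 and 2.26 TPM with LPCX. HBB was at 569 TPM with ESRP1 and 0.675 TPM with LPCX. HBA1 was at 336 TPM with ESRP1 and 0.130 TPM with LPCX. HBA1 and HBA2 are near-identical, so the split between them is uncertain. HBG2, a fetal form, was at 0.571 TPM with ESRP1 and 0 with LPCX, and HBD was listed at 0 in all 6 libraries.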

How the results depend on the processing

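PANC-1 against MIA-PaCa2 kept 49 of its 57 members called lower and 9 of its 11 called higher in each of 17 settings; among those that lost the call in at least 1 were RPL23A, RPL32, RPL35A, RPS20, RPS21, RPS27L, RPS7, RPS26 and RPS29. Without any 1 library 51 to 55 were called lower and 9 to 13 higher, beside 3737 to 4070 and 4486 to 4997 of all genes. A further fit had no replicate block, that is no construct term (for ESRP1 and ESRP2, no line term). There 54 were lower and 11 higher, beside 4116 and 4994 of all 11829 genes. ESRP1, ESRP2 and their difference had 0 members called in each setting, that without the block included, and the members' median stayed below 0 for both ESRP1 and ESRP2 in each. Members negative over both lines numbered 52 to 70 for ESRP1 and 54 to 72 for ESRP2, the highest with median ratio scaling. With the length trend removed, members with a log2 ratio of -0.32 or below numbered 11 in place of 20 for ESRP2 in PANC-1, 8 in place of 15 for ESRP2 in MIA-PaCa2, and 1 in place of 0 for ESRP1 in MIA-PaCa2, and the median of all genes for PANC-1 against MIA-PaCa2 was -0.08 in place of 0.08. The members' share of TPM with coding transcripts alone was 12.2%, 11.7% and 13.5% for ESRP1, ESRP2 and LPCX in PANC-1, and 17.2%, 17.4% and 18.4% in MIA-PaCa2. With repeated lines kept it was 12.7%, 12.02% and 13.6% in PANC-1, and 18.4%, 17.9% and 19.4% in MIA-PaCa2. Member transcripts called between the lines fell to between 0 and 1 without any 1 library, which leaves fewer residual degrees of freedom. Ratios within a line have no setting without a library, since 1 library stands on each side. Depth is unknown, so what it limits cannot be given.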

Other observations

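Proteins of the cytosolic ribosome are also made from genes outside the symbol rule. FAU, which encodes RPS30 as a fusion, was at 1100.1 TPM with ESRP1, 1162 TPM with ESRP2 and 1234 TPM with LPCX in PANC-1, against 729.8 TPM with ESRP1, 655 TPM with ESRP2 and 737 TPM with LPCX in MIA-PaCa2. It rose in PANC-1 by 0.72 (SE 0.0726, adjusted p = 0.000301), unlike most small subunit genes. RPL36AL, a paralog of RPL36A, rose by 0.36 (adjusted p = 0.0388 in limma), while RPL36A fell by 0.53. With LPCX RPL36AL was at 394 TPM in PANC-1 and 396 TPM in MIA-PaCa2, so its rise came from the ESRP libraries. It was at 519 and 442 TPM with ESRP1 and ESRP2 in PANC-1, against 352 and 303 TPM in MIA-PaCa2. Neither FAU nor RPL36AL was called by limma for ESRP1 or ESRP2.

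RPS19, a small subunit protein, had 2 transcripts whose shares moved by at least 10 points with ESRP2 in MIA-PaCa2 (14.7% of all transcripts). NM_001022 made up 60.1% with ESRP1, 81.9% with ESRP2 and 65.2% with LPCX there, and 56.6%, 59.4% and 58.5% in PANC-1 in the same order. NM_001321483 made up 39.0% with ESRP1, 17.0% with ESRP2 and 33.5% with LPCX in MIA-PaCa2. Total RPS19 with ESRP2 was at -0.20 in PANC-1 and 0.05 in MIA-PaCa2 on the log2 scale.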
